A study of Mus musculus with 14 samples.

Results

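Leukocyte and macrophage genes were followed across the fetal epithelium of the urogenital sinus and 3 populations of adult mouse prostate cells. The set holds 40 genes chosen by name, of which 39 were listed for the array and *Lck* was not analysed here, out of 18193 genes represented on it. All 39 passed the filter on low values, a signal above 20 on at least 1 of 14 arrays, as did 17136 genes in all, and *Cd48*, *Itgam* and *Cd3g* passed it through Sca-1Neg arrays alone. Of them 11 are pan-leukocyte, 24 myeloid and 4 lymphoid. UGE, the epithelium of the urogenital sinus of C57BL/6 embryos at day 16, was measured in 3 samples and was not sorted by Sca-1. Adult cells came from the prostates of male C57BL mice aged 6 to 8 weeks by the labels, were taken from the proximal ducts and were sorted by the surface antigen Sca-1 into high (Sca-1Hi, 3 samples), low (Sca-1Lo, 4 samples) and negative (Sca-1Neg, 4 samples) fractions. No genotype change or treatment was part of the design. In the study Sca-1Hi stands for stem cells, Sca-1Lo for transit-amplifying cells and Sca-1Neg for the most differentiated cells, and the methods name no gate on a leukocyte antigen. The labels do not say whether samples came from separate animals, so p-values measure the spread between these samples, which may be technical.

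Leukocytes carry the surface phosphatase CD45 and the integrin chain CD18, and move by a cytoskeleton with haematopoietic forms of its regulators. Tissue macrophages depend on the receptor of colony stimulating factor 1, make the complement component C1q, and signal through receptors that use adaptors with an ITAM, the motif of immune receptors that kinases phosphorylate. They settle in organs before birth and live between and beneath epithelia, so a preparation of epithelium can carry them along. Sca-1 itself is found on many blood cells as well as on prostate epithelium. In such bulk samples fewer leukocytes and less leukocyte RNA per cell cannot be told apart.

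The 4 Sca-1Neg arrays differed widely from each other in these genes. For 33 of 39 members the order of signal was replicate 2, 1, 4 and then 3, and replicate 2 was the highest of all 14 arrays for 36. Summed over the 39 members, the signal ran from 10919 on replicate 3 to 108910 on replicate 2. Set against replicate 3, the member of median ratio was 16.9-fold higher on replicate 2 among myeloid genes, 17.1-fold among pan-leukocyte genes and 6.03-fold among lymphoid genes. Replicates 1 and 2 lay above every array of UGE, Sca-1Hi and Sca-1Lo for 35 and 37 members, and replicate 4 for 26. Replicate 3 did so for 5 members only. Each comparison with Sca-1Neg therefore sets a population against 4 unequal arrays, and its value without replicates 1 and 2, an alternative chosen after seeing the data, is given with the overall counts, the counts by role, the counts of arrays that do not overlap and the lineage medians.

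Genes of other cell types moved across the same 4 arrays. The 6 basal epithelial genes summed to between 1770 and 8022 on Sca-1Neg arrays against between 8772 and 28406 elsewhere, and *Krt5*, the basal keratin, measured 382, 203, 2008 and 1069.8 in Sca-1Neg. The 6 smooth muscle and pericyte genes summed to between 24503 and 71486 in Sca-1Neg, with *Myh11*, the smooth muscle myosin, at 7107, 4333, 3563 and 13903 in Sca-1Neg. *Alas2*, the first enzyme of haem synthesis in red cell precursors, measured 4561, 8846, 744 and 2582 in Sca-1Neg. *Hba-a1*, a haemoglobin chain, did not follow it and measured 46.6, 68.3, 99.1 and 52.7 in Sca-1Neg. Its log2 differences from Sca-1Neg were 0.23 in UGE, 0.46 in Sca-1Hi and 0.34 in Sca-1Lo, with no call. Only these 2 of the 5 red cell genes listed had a probe set that names 1 gene. Replicates 1 and 2 thus held the highest leukocyte and *Alas2* signals and the lowest basal keratin, while *Hba-a1* was highest on replicate 3 and *Myh11* on replicate 4. No basal, smooth muscle or red cell gene was at or under 20 on every array of Sca-1Neg, and the part of these cells in the differences below was not tested.

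**Figure D1:**
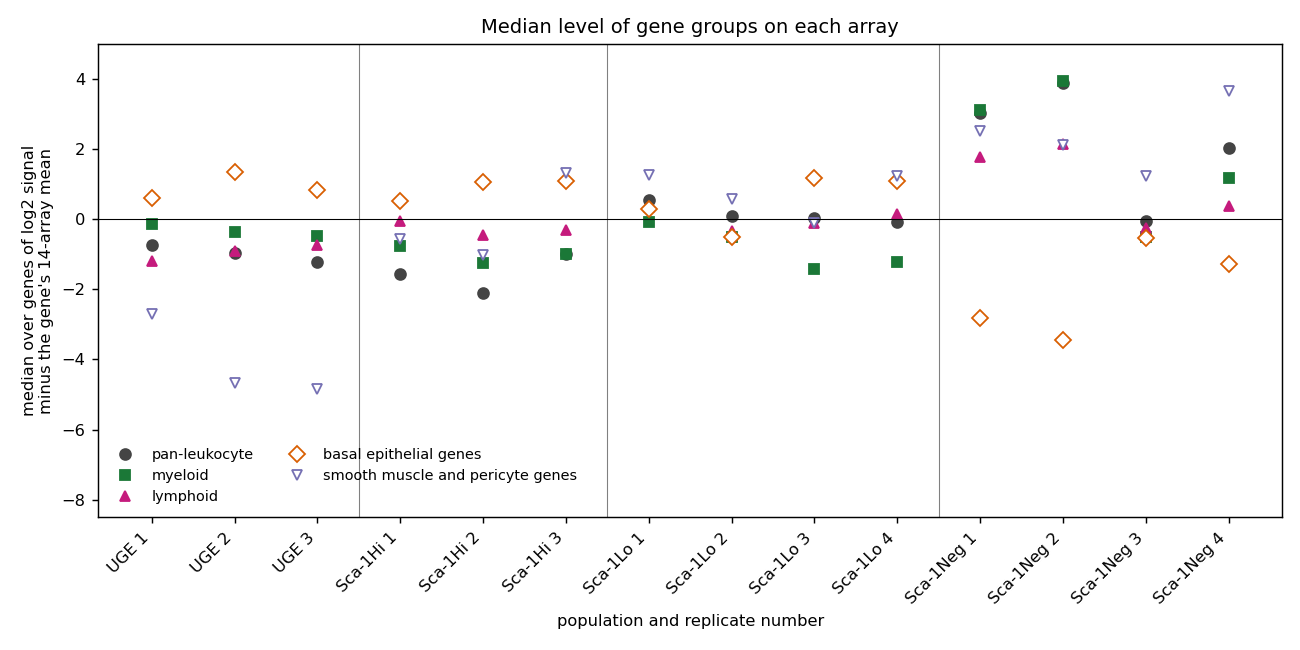
Median over the genes of each group of the log2 signal minus the gene's mean over 14 arrays, for each array by population and replicate number; filled marks are the pan-leukocyte, myeloid and lymphoid members, open marks basal epithelial and smooth muscle genes. Myeloid members stood at 3.12, 3.94, -0.51 and 1.16 on Sca-1Neg replicates 1 to 4 and between -1.42 and -0.08 on the Sca-1Hi and Sca-1Lo arrays.

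A call needed an adjusted p under 0.05 over all probe sets and a ratio of more than 7 to 4. Against Sca-1Neg 0 members were called higher in UGE (all genes 16.3%), Sca-1Hi (6.11%) or Sca-1Lo (1.68%) by limma, 0 were higher at an unadjusted p under 0.05, and 0 were called higher by the methods' t-test. In Sca-1Hi 24 of 39 members were lower, beside 5.19% of all genes called lower in that comparison. They were 9 of 11 pan-leukocyte, 14 of 24 myeloid and 1 of 4 lymphoid members. UGE was lower in 21 of 39 (all genes 12.9%), which were 9 pan-leukocyte, 10 myeloid and 2 lymphoid genes. Sca-1Lo was lower in 6, where 0.829% of all genes were called, and all 6 were myeloid (*C1qa*, *C1qb*, *Cx3cr1*, *Ccl3*, *Lyz2* and *Il1b*), while 29 of the 39 passed an unadjusted p under 0.05 by limma. *Cd48* and *Cd3g*, which could only be lower outside Sca-1Neg given how they passed the filter, are in the counts of Sca-1Hi and UGE, which are 22 and 19 without them. The median log2 difference over the members was -3.24 in Sca-1Hi, -2.46 in UGE and -2.25 in Sca-1Lo, and over all genes it was 0.03, 0.07 and 0.08. With values under 20 set to 20 the members' medians were -2.72, -2.23 and -2.19. The 3 comparisons share their Sca-1Neg arrays.

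These counts moved with single arrays. The share of all genes called was not computed for the fits of this paragraph, so the counts below have no background beside them. Without Sca-1Neg replicate 3, 28 members were called lower in Sca-1Lo, 31 in Sca-1Hi and 37 in UGE. In Sca-1Lo 2 members were called without Sca-1Lo replicate 3, without Sca-1Lo replicate 4 or without Sca-1Neg replicate 1. In Sca-1Hi 14 were called without Sca-1Hi replicate 2, and 15 without Sca-1Hi replicate 3 or without Sca-1Neg replicate 1. In UGE 13 were called without UGE replicate 2 or 3, and 14 without UGE replicate 1 or Sca-1Neg replicate 1. Without Sca-1Neg replicates 1 and 2 together, 15 were lower in Sca-1Hi, 9 in UGE and 3 in Sca-1Lo, all among those called with every array. Lost in Sca-1Hi were *Rac2*, *C1qa*, *Cx3cr1*, *Ccl4*, *Csf1r*, *Tyrobp*, *Fcer1g* and *Tnf*, in UGE *Laptm5*, *Cd48*, *Lcp1*, *Ccl4*, *Tyrobp*, *Fcer1g*, *Lyz2*, *Ncf4*, *Fcgr3*, *Ctss* and *Cd2*, and in Sca-1Lo *C1qa*, *C1qb* and *Lyz2*, and *Cd3g* no longer passed the filter. By the methods' t-test, adjusted over all probe sets, 2 members were lower in UGE and 0 in Sca-1Hi and in Sca-1Lo, with 18 in each of the latter at an unadjusted p under 0.05.

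Deviations from the group means correlated in each of the 4 same-numbered pairs of Sca-1Lo and Sca-1Neg arrays (from 0.124 to 0.558 over probe sets). So did some differently numbered pairs. Sca-1Lo replicate 2 with Sca-1Neg replicate 1 gave 0.409, and Sca-1Lo replicate 3 with Sca-1Neg replicate 4 gave 0.445. The other such pairs were lower, down to -0.565, and the correlations do not show pairing by replicate number. With the replicate number as a block over all 14 arrays, 11 members were lower in Sca-1Lo (all genes 1.32%), the 6 above with *C1qc*, *Ccl4*, *Csf1r*, *Fcgr3* and *Ctss*. With the block and only the Sca-1Lo and Sca-1Neg arrays in the fit, chosen after seeing the data, 5 were lower (0.525%), *C1qb*, *Ccl4*, *Fcgr3*, *Ctss* and *Il1b*, of which *C1qb* and *Il1b* are among the 6. No other 2 populations had every same-numbered pair above 0.1.

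Counted by arrays that do not overlap, 22 members had every Sca-1Hi array below every Sca-1Neg array (all genes 8.78%). For UGE there were 17 such members (15.8%), and for Sca-1Lo 6 (2.49%). No member had every array above Sca-1Neg, as 20.1% of all genes had in UGE, 12.3% in Sca-1Hi and 4.21% in Sca-1Lo. Without Sca-1Neg replicates 1 and 2 these counts were again 22, 17 and 6, beside 25.8%, 25.2% and 14.4% of all genes. The members' counts could not change, because neither replicate 1 nor 2 was the lowest Sca-1Neg array for any member. In Sca-1Lo the 6 included *Fcgr3*, which was not called, and left out *Lyz2*.

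**Figure D2:**
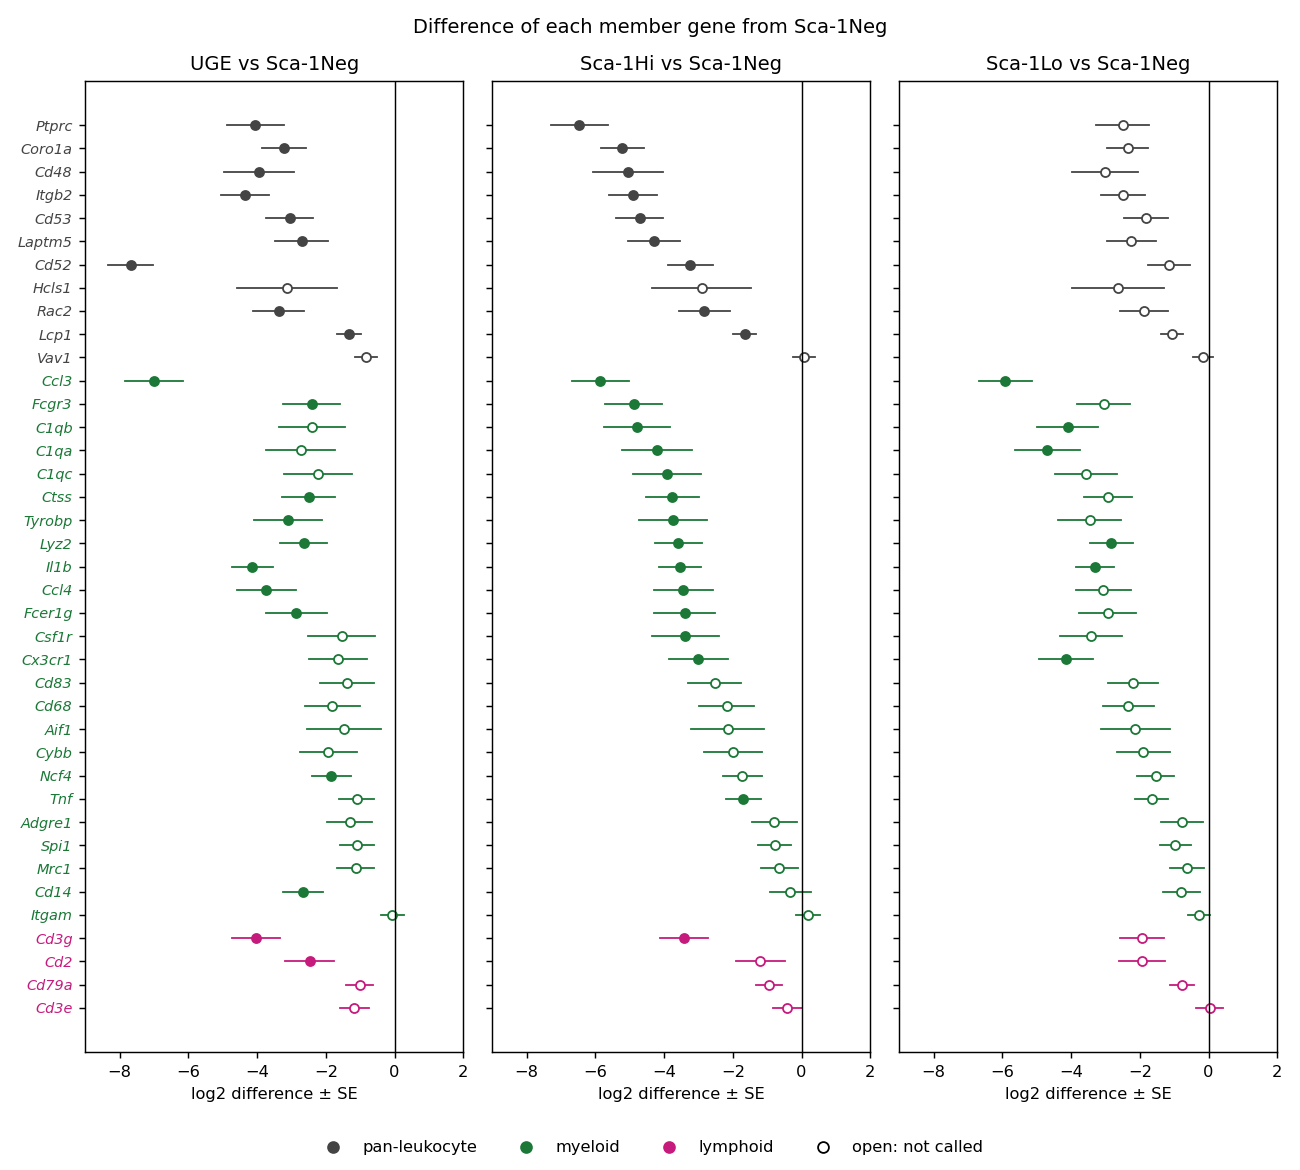
Log2 difference of each of 39 members from Sca-1Neg in UGE, Sca-1Hi and Sca-1Lo, as points with lines for ± 1 SE of the limma fit; filled points were called, open points were not. Filled points number 21, 24 and 6, and the 6 of Sca-1Lo are all myeloid.

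Promoters are shown for *C1qb*, *Ccl3* and *Ptprc*, a complement gene, a chemokine gene and a pan-leukocyte gene that were all called lower in Sca-1Hi. PU.1, the product of the member *Spi1*, is the transcription factor that myeloid cells depend on, and reads a box with the letters GAGGAA. RefSeq sequence of the 250 bases before the start was at hand for 27 of the 40 genes named and was searched for GAGGAA on both strands, with the motif chosen when the signals were known. The sequences are on build GRCm38.p6, all from minus strand genes, written in the sense of the gene with the motif in capitals, as GAGGAA or its reverse complement.
C1qb, chr4:136886201-136886450: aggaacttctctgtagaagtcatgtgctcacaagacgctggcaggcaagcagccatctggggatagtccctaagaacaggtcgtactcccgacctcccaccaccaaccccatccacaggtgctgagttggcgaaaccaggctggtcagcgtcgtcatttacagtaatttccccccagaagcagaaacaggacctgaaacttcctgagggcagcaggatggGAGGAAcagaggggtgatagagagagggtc
Ccl3, chr11:83649379-83649628: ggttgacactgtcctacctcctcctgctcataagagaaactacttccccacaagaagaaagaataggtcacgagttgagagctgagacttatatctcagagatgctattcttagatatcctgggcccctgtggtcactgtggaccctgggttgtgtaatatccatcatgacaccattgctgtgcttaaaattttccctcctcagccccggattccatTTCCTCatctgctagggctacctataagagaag
Ptprc, chr1:138175306-138175555: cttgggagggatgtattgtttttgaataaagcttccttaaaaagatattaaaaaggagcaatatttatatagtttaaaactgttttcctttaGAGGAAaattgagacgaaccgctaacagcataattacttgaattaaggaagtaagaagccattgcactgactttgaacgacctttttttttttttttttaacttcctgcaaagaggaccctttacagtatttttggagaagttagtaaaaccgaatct
The motif's first base lay 30 bases before the start of *C1qb* and 158 before that of *Ptprc* on the gene's own strand, and 33 before that of *Ccl3* on the other strand. It was found for 17 of 27 members (63%), with 10 of 15 myeloid, 4 of 8 pan-leukocyte and 3 of 4 lymphoid promoters. Of all 27025 genes with such an entry 23.1% held it. These are matches of letters in a window and no measurement of binding.

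Surface and adhesion genes of all leukocytes were lower in Sca-1Hi and UGE, in 6 of 6 members each (6 and 4 without Sca-1Neg replicates 1 and 2), and none of the 6 was called in Sca-1Lo. *Ptprc* encodes CD45, the phosphatase of the leukocyte surface, and measured 1424, 2619, 113 and 627 in Sca-1Neg, 168, 87.7, 135 and 131 in Sca-1Lo, 12.3, 14.6 and 2.92 in Sca-1Hi, and 43.2, 38.7 and 47.9 in UGE. Sca-1Hi lay under 20 on every array, UGE just above it, and the Sca-1Lo arrays near the lowest Sca-1Neg array. In UGE *Ptprc* was lower (log2 difference -4.06 ± 0.83 SE, adjusted p = 0.0027) with no overlap between arrays, and in Sca-1Lo it missed the call (log2 difference -2.50 ± 0.77 SE, adjusted p = 0.127). Its other probe set was not called in UGE. *Itgb2* encodes CD18, the shared chain of the leukocyte integrins, and measured 3902, 5806, 339 and 1484 in Sca-1Neg, 433, 348, 322 and 245 in Sca-1Lo, 51.8, 65.7 and 67.6 in Sca-1Hi, and 77.9, 106 and 88.5 in UGE. UGE fell below every Sca-1Neg array (log2 difference -4.35 ± 0.69 SE, adjusted p = 0.000468), Sca-1Hi lay lower still, and Sca-1Lo between them and Sca-1Neg (log2 difference -2.48 ± 0.64 SE, adjusted p = 0.0681) with its arrays overlapping replicate 3.

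*Cd52*, a small glycoprotein anchored in the lymphocyte and monocyte membrane, went against this order. It measured 7375, 6503, 5063 and 7324 in Sca-1Neg, 8162, 5082, 1250.3 and 1384 in Sca-1Lo, 1815, 324 and 555 in Sca-1Hi, and 44.0, 29.9 and 24.6 in UGE. It was nearly even over the 4 Sca-1Neg arrays, at 6566 ± 1079 (SD, n = 4), where the other 5 genes of this group spread widely, and Sca-1Lo replicate 1 was the highest of all arrays. UGE was lower than Sca-1Neg (log2 difference -7.67 ± 0.65 SE, adjusted p = 2.87e-06), and Sca-1Hi was lower too (log2 difference -3.24 ± 0.65 SE, adjusted p = 0.00704), the latter lost without Sca-1Hi replicate 2 (adjusted p = 0.0513). Sca-1Lo was not called (log2 difference -1.16 ± 0.60 SE, adjusted p = 0.439). *Cd48*, a ligand of the lymphocyte receptor CD2 family, measured 237, 401, 7.57 and 70.1 in Sca-1Neg, 17.8, 13.0, 8.93 and 5.70 in Sca-1Lo, 1.59, 1.70 and 6.11 in Sca-1Hi, and 6.53, 7.69 and 3.26 in UGE. Only 3 of the 14 arrays, all Sca-1Neg, were above 20. It was called in Sca-1Hi (at least 4.21-fold lower, adjusted p = 0.00747) and in UGE (at least 4.21-fold lower, adjusted p = 0.0120), the latter lost without UGE replicate 3 (adjusted p = 0.0570). *Cd53*, a tetraspanin, and *Laptm5*, a lysosomal protein of blood cells, were lower in Sca-1Hi (at least 9.83-fold lower, adjusted p = 0.00109 and log2 difference -4.28 ± 0.76 SE, adjusted p = 0.00350), and Sca-1Neg spanned 41.4 to 645 and 145 to 2562. The other probe set of *Cd53* and most others of *Laptm5* were not called in Sca-1Hi or UGE.

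Genes of the leukocyte cytoskeleton and its signalling were called in 3 of 5 members in Sca-1Hi and in UGE (2 and 2 without Sca-1Neg replicates 1 and 2), and in none in Sca-1Lo. *Coro1a*, coronin of the blood cell cytoskeleton, measured 751, 1242, 104 and 507 in Sca-1Neg, 114, 80.8, 90.6 and 85.9 in Sca-1Lo, 8.74, 11.3 and 20.8 in Sca-1Hi, and 80.6, 43.7 and 37.7 in UGE. All Sca-1Lo arrays but the first lay under the lowest Sca-1Neg array, and Sca-1Hi was lowest. *Coro1a* was lower in UGE (log2 difference -3.21 ± 0.64 SE, adjusted p = 0.00229) and gave a log2 difference of -2.36 ± 0.59 SE (adjusted p = 0.0606) in Sca-1Lo. *Rac2*, the haematopoietic Rac GTPase, measured 254, 458, 26.5 and 111 in Sca-1Neg, 37.1, 36.5, 29.8 and 47.1 in Sca-1Lo, 15.9, 20.2 and 22.0 in Sca-1Hi, and 25.3, 5.63 and 16.0 in UGE. It was called in UGE (at least 6.29-fold lower, adjusted p = 0.00454) and in Sca-1Hi (at least 6.57-fold lower, adjusted p = 0.0260), the latter lost without any 1 Sca-1Hi array or Sca-1Neg replicate 1 or 2 (adjusted p from 0.0559 to 0.0932). The other probe set of *Rac2* was called in neither. *Lcp1*, the actin bundler L-plastin, measured 1022, 1391, 1339.8 and 781 in Sca-1Neg, 789.7, 638, 435 and 368 in Sca-1Lo, 418, 316 and 326 in Sca-1Hi, and 305, 699.7 and 403 in UGE. It varied least over Sca-1Neg, where replicates 2 and 3 were nearly equal, and was lower in Sca-1Hi (log2 difference -1.66 ± 0.34 SE, adjusted p = 0.00835) and UGE (log2 difference -1.32 ± 0.34 SE, adjusted p = 0.0119), the latter lost without UGE replicate 1 or 3 (adjusted p from 0.0504 to 0.0549). The other 2 were not called. *Hcls1*, a substrate of tyrosine kinases in blood cells, stood at 1146, 2369, 9.93 and 22.3 in Sca-1Neg and between 13.5 and 31.1 elsewhere. *Vav1*, an exchange factor for Rac, stayed between 85.7 and 183 outside Sca-1Neg replicate 2, which reached 328. Its other probe set was called lower in Sca-1Hi.

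**Figure D3:**
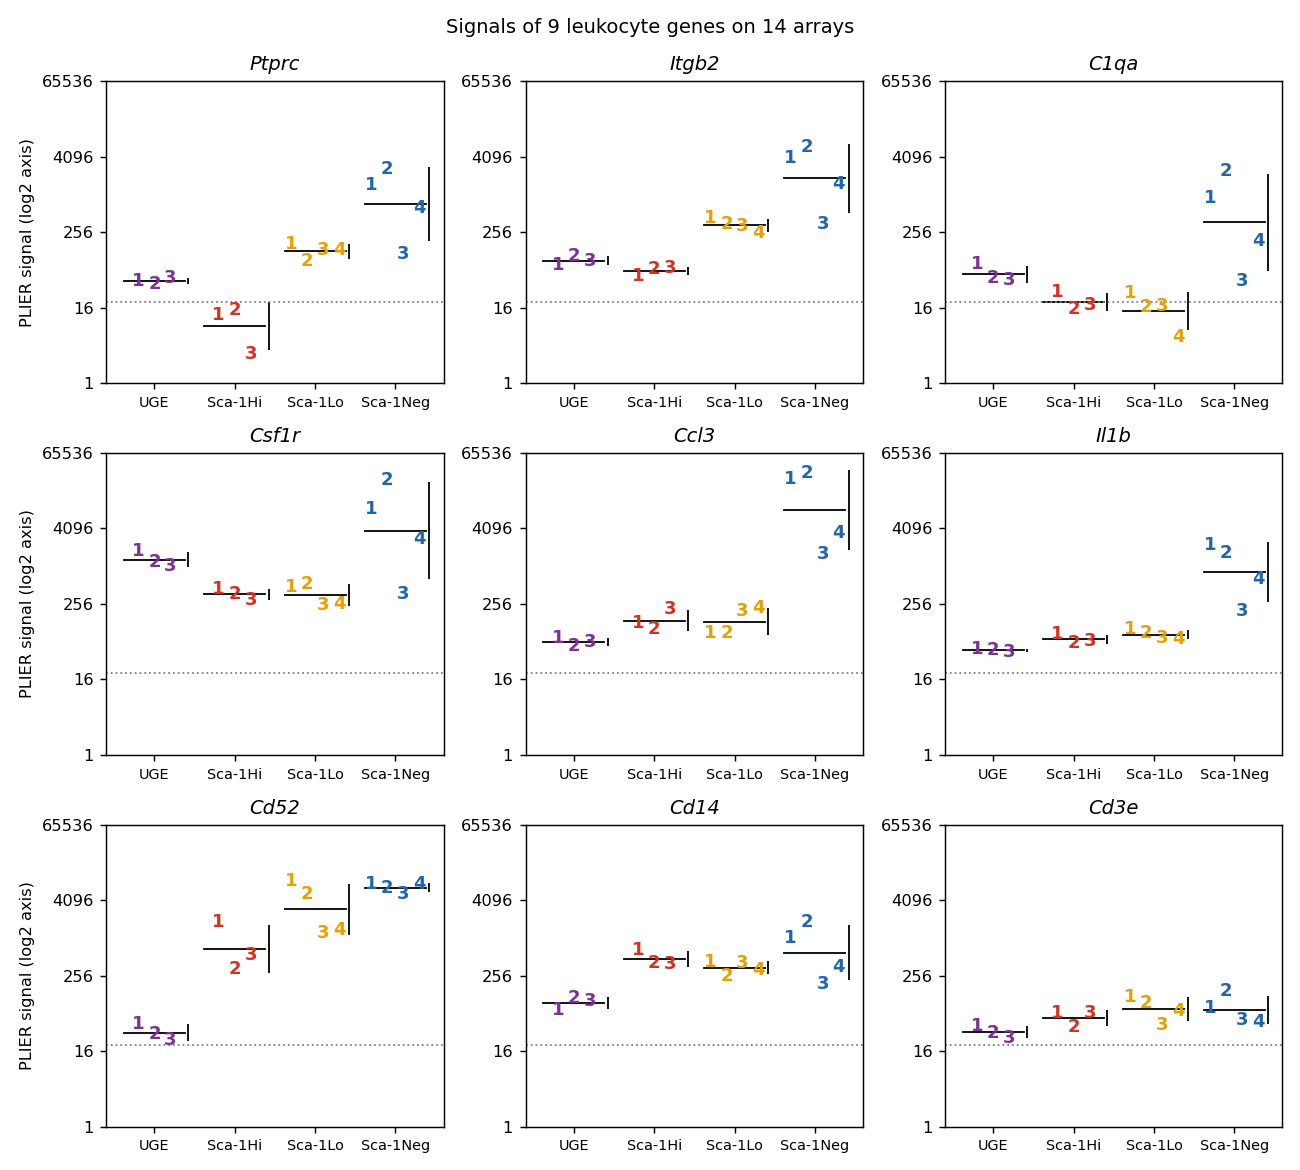
Linear PLIER signal of 9 members on each of 14 arrays on a log2 axis, with digits giving the replicate number, black bars the mean of log2 signals, vertical lines ± 1 SD of log2 signals and the dotted line the signal of 20. Sca-1Neg replicates 1 and 2 lie at the top for 7 of the 9 genes, and *Cd52* and *Cd3e* show other patterns.

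The 3 chains of C1q, which macrophages secrete to start the classical complement pathway, were all lower in Sca-1Hi, and *C1qa* and *C1qb* were lower in Sca-1Lo. Without Sca-1Neg replicates 1 and 2 there were 2 calls in Sca-1Hi and 0 in Sca-1Lo. *C1qb* measured 1426, 3391, 88.2 and 326 in Sca-1Neg, 56.9, 57.1, 28.1 and 17.5 in Sca-1Lo, 55.1, 14.6 and 13.5 in Sca-1Hi, and 156, 104 and 95.9 in UGE. Every array of Sca-1Lo and Sca-1Hi lay below the lowest Sca-1Neg array, while all UGE arrays lay above it. It was lower in Sca-1Hi (log2 difference -4.78 ± 0.97 SE, adjusted p = 0.00709) and Sca-1Lo (log2 difference -4.10 ± 0.89 SE, adjusted p = 0.0336), and UGE was not called (log2 difference -2.39 ± 0.97 SE, adjusted p = 0.0822). *C1qa* measured 899, 2444, 43.0 and 187 in Sca-1Neg, 26.9, 16.3, 16.8 and 5.37 in Sca-1Lo, 28.4, 15.4 and 17.7 in Sca-1Hi, and 78.5, 47.5 and 44.0 in UGE. It followed *C1qb*, with UGE just above the lowest Sca-1Neg array, and in Sca-1Hi gave a log2 difference of -4.21 ± 1.01 SE (adjusted p = 0.0176). *C1qc* measured 589, 1914, 30.1 and 112 in Sca-1Neg, 19.9, 31.7, 14.5 and 21.3 in Sca-1Lo, 18.8, 16.6 and 14.4 in Sca-1Hi, and 79.2, 39.1 and 48.3 in UGE. Sca-1Lo replicate 2 overlapped Sca-1Neg replicate 3, and the gene was lower in Sca-1Hi (at least 12.4-fold lower, adjusted p = 0.0214) but not called in Sca-1Lo (log2 difference -3.56 ± 0.91 SE, adjusted p = 0.0657). Calls of *C1qa* and *C1qc* in Sca-1Hi were lost without Sca-1Hi replicate 2, Sca-1Hi replicate 3 or Sca-1Neg replicate 1 (adjusted p from 0.0510 to 0.0830, and adjusted p from 0.0605 to 0.0841). In Sca-1Lo *C1qa* was lost without Sca-1Lo replicate 3 or 4 or Sca-1Neg replicate 1 (adjusted p from 0.0695 to 0.0828), and *C1qb* with any of 7 arrays left out (adjusted p from 0.0509 to 0.113), namely UGE replicate 3, Sca-1Lo replicates 1, 3 and 4, and Sca-1Neg replicates 1, 2 and 4.

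Cytokine and activation genes were lower in 4 of 5 members in Sca-1Hi, 3 in UGE and 2 in Sca-1Lo (2 in each without Sca-1Neg replicates 1 and 2), and for *Ccl3* and *Il1b* even the lowest Sca-1Neg array lay above all others. *Ccl3*, the chemokine MIP-1 alpha, measured 24921, 31227, 1583 and 3422 in Sca-1Neg, 87.2, 86.8, 195 and 218 in Sca-1Lo, 125, 102 and 211 in Sca-1Hi, and 73.2, 54.5 and 62.7 in UGE. Its 4 Sca-1Neg signals were all at or above 1583 and all 10 others at or under 218. The call held with each array left out in all 3 populations, with a log2 difference of -7.00 ± 0.84 SE (adjusted p = 4.72e-05) in UGE and of -5.91 ± 0.78 SE (adjusted p = 0.00210) in Sca-1Lo. *Il1b*, interleukin 1 beta, measured 2189, 1661, 194 and 633 in Sca-1Neg, 102, 87.3, 74.1 and 71.5 in Sca-1Lo, 84.9, 61.2 and 66.5 in Sca-1Hi, and 48.8, 47.8 and 43.3 in UGE. Again no array overlapped, and it was lower in UGE (log2 difference -4.13 ± 0.60 SE, adjusted p = 0.000243), Sca-1Hi (log2 difference -3.54 ± 0.60 SE, adjusted p = 0.00277) and Sca-1Lo (log2 difference -3.30 ± 0.56 SE, adjusted p = 0.0101), calls that also held with each array left out. *Ccl4*, the chemokine MIP-1 beta, measured 986, 1439.9, 69.5 and 204 in Sca-1Neg, 64.2, 81.2, 28.4 and 27.7 in Sca-1Lo, 55.9, 21.0 and 35.5 in Sca-1Hi, and 49.2, 15.1 and 30.9 in UGE. It was lower in UGE (log2 difference -3.73 ± 0.86 SE, adjusted p = 0.00602) and in Sca-1Hi (log2 difference -3.44 ± 0.86 SE, adjusted p = 0.0210), the latter lost without Sca-1Hi replicate 2 or 3 or Sca-1Neg replicate 1 (adjusted p from 0.0596 to 0.110), and not called in Sca-1Lo (log2 difference -3.06 ± 0.80 SE, adjusted p = 0.0702), where replicate 2 overlapped. *Tnf*, tumour necrosis factor, measured 117, 141, 28.3 and 42.3 in Sca-1Neg, 31.8, 22.3, 10.6 and 26.6 in Sca-1Lo, 17.6, 24.5 and 20.3 in Sca-1Hi, and 33.0, 25.2 and 36.0 in UGE. Its call in Sca-1Hi was the weakest of the 24 (log2 difference -1.69 ± 0.52 SE, adjusted p = 0.0470) and was lost with any array left out except Sca-1Lo replicate 3 and Sca-1Neg replicates 3 and 4 (adjusted p from 0.0522 to 0.121). *Cd83*, a maturation antigen of dendritic cells, stood at 470.4, 476, 34.9 and 140.1 in Sca-1Neg, with 17.4 to 93.8 elsewhere, and was not called.

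The 9 immediate early genes, which tissue dissociation can switch on, were given beside the cytokines. They summed to between 19276 and 39514 in Sca-1Neg, 34730 and 77187 in Sca-1Hi, 19343 and 86206 in Sca-1Lo, and 3454 and 6081 in UGE. By limma 0 of the 9 were called between Sca-1Hi or Sca-1Lo and Sca-1Neg, with 3 and 2 at an unadjusted p under 0.05, and 8 were lower in UGE. *Ccl3* and *Il1b* were lower than in Sca-1Neg in Sca-1Hi, Sca-1Lo and UGE, and the part of dissociation in these differences was not tested.

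Both ITAM adaptors were lower in Sca-1Hi and UGE, and neither was called there without Sca-1Neg replicates 1 and 2. *Tyrobp* (DAP12) measured 1102, 2174, 35.2 and 309.6 in Sca-1Neg, 64.1, 44.1, 24.0 and 26.5 in Sca-1Lo, 34.3, 29.0 and 27.5 in Sca-1Hi, and 53.4, 37.7 and 52.1 in UGE. Replicate 3 of Sca-1Neg lay among the other populations, and replicates 1, 2 and 4 above them. The gene gave a log2 difference of -3.74 ± 0.98 SE (adjusted p = 0.0259) in Sca-1Hi and of -3.09 ± 0.98 SE (adjusted p = 0.0323) in UGE. *Fcer1g*, the gamma chain of Fc receptors, measured 849, 1635, 43.5 and 204 in Sca-1Neg, 69.2, 46.9, 36.1 and 31.1 in Sca-1Lo, 44.0, 19.4 and 36.4 in Sca-1Hi, and 53.4, 38.1 and 47.6 in UGE, and gave a log2 difference of -3.40 ± 0.89 SE (adjusted p = 0.0249) in Sca-1Hi and of -2.86 ± 0.89 SE (adjusted p = 0.0289) in UGE. In UGE both calls were lost without any 1 UGE array or Sca-1Neg replicate 1 or 2 (adjusted p from 0.0606 to 0.102, and adjusted p from 0.0534 to 0.0928). In Sca-1Hi *Tyrobp* was lost without any 1 Sca-1Hi array or Sca-1Neg replicate 1 or 2 (adjusted p from 0.0538 to 0.0999), and *Fcer1g* without Sca-1Hi replicate 2 or 3 or Sca-1Neg replicate 1 or 2 (adjusted p from 0.0501 to 0.125). Neither was called in Sca-1Lo (log2 difference -3.46 ± 0.91 SE, adjusted p = 0.0724, and log2 difference -2.93 ± 0.82 SE, adjusted p = 0.0925).

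Among 6 lysosome and phagocyte genes 2 were lower in Sca-1Hi, 3 in UGE and 1 in Sca-1Lo (2, 0 and 0 without Sca-1Neg replicates 1 and 2). *Ctss*, the lysosomal protease cathepsin S, measured 3627, 6213, 319 and 1453 in Sca-1Neg, 438, 341, 135 and 155 in Sca-1Lo, 179, 139.9 and 93.1 in Sca-1Hi, and 303, 323 and 331 in UGE. UGE replicates 2 and 3 and Sca-1Lo replicates 1 and 2 lay above Sca-1Neg replicate 3. It was lower in Sca-1Hi (log2 difference -3.76 ± 0.77 SE, adjusted p = 0.00748) and in UGE (log2 difference -2.49 ± 0.77 SE, adjusted p = 0.0276), the latter lost without any 1 UGE array or Sca-1Neg replicate 1 or 2 (adjusted p from 0.0628 to 0.0780). *Lyz2*, the lysozyme of macrophages and granulocytes, measured 776, 1144, 80.6 and 308 in Sca-1Neg, 87.1, 67.0, 40.2 and 37.2 in Sca-1Lo, 45.6, 28.6 and 25.3 in Sca-1Hi, and 79.9, 45.9 and 63.5 in UGE. It was called in Sca-1Hi (log2 difference -3.58 ± 0.69 SE, adjusted p = 0.00543), UGE (log2 difference -2.65 ± 0.69 SE, adjusted p = 0.0119) and Sca-1Lo (log2 difference -2.82 ± 0.64 SE, adjusted p = 0.0394). Its call in Sca-1Lo held with 3 of the 14 arrays left out, Sca-1Lo replicate 2, UGE replicate 1 and Sca-1Neg replicate 3, and was lost with each of the other 11 (adjusted p from 0.0513 to 0.133), and that in UGE was lost without UGE replicate 2 (adjusted p = 0.0536). *Ncf4*, a cytosolic part of the phagocyte oxidase, measured 84.3, 189, 18.8 and 54.4 in Sca-1Neg, 25.7, 34.1, 14.7 and 17.8 in Sca-1Lo, 21.5, 16.2 and 20.4 in Sca-1Hi, and 18.7, 20.7 and 14.6 in UGE. Its signals crossed 20 in every population, and it was called in UGE alone (at least 3.14-fold lower, adjusted p = 0.0287), lost without any 1 UGE array or Sca-1Neg replicate 1 or 2 (adjusted p from 0.0576 to 0.102). *Cd68* (a lysosomal glycoprotein of macrophages), *Aif1* (the actin-binding IBA1) and *Cybb* (the membrane part of the oxidase) were not called at the probe set of highest mean signal. Of *Cybb* both other probe sets were called lower in Sca-1Hi (log2 differences -2.31 and -4.17, adjusted p = 0.0338 and 0.0169 by limma) and in UGE (-2.39 and -2.85, adjusted p = 0.0145 and 0.0486), and the second of them in Sca-1Lo too (-3.87, adjusted p = 0.0499). At the probe set of highest mean signal *Cd68*, *Aif1* and *Cybb* ran from 7.21 to 42.8 outside Sca-1Neg and up to 701, 506 and 185 on Sca-1Neg replicate 2.

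Receptors of the myeloid surface were the least uniform group, with 3 of 7 lower in Sca-1Hi, 2 in UGE and 1 in Sca-1Lo (1 in each without Sca-1Neg replicates 1 and 2). *Csf1r*, the receptor that macrophages need to survive, measured 8436, 23762, 375 and 2724 in Sca-1Neg, 476, 523, 245 and 258 in Sca-1Lo, 447, 365 and 294 in Sca-1Hi, and 1786, 1179 and 1039.8 in UGE. The 3 UGE arrays lay above every Sca-1Hi and Sca-1Lo array and above Sca-1Neg replicate 3. *Csf1r* was lower in Sca-1Hi (log2 difference -3.38 ± 0.97 SE, adjusted p = 0.0372), a call lost with any of 7 arrays left out (adjusted p from 0.0511 to 0.125), namely UGE replicate 3, any Sca-1Hi array, or Sca-1Neg replicates 1, 2 and 4. It was not called in Sca-1Lo (log2 difference -3.42 ± 0.90 SE, adjusted p = 0.0712) or UGE (log2 difference -1.54 ± 0.97 SE, adjusted p = 0.258). Another probe set of *Csf1r* was called lower in Sca-1Lo, and a further one was not called in Sca-1Hi. *Cx3cr1*, the fractalkine receptor, measured 246, 695, 19.0 and 61.2 in Sca-1Neg, 5.97, 7.47, 7.78 and 5.77 in Sca-1Lo, 15.0, 13.9 and 15.5 in Sca-1Hi, and 60.0, 35.0 and 26.2 in UGE. All 7 arrays of Sca-1Hi and Sca-1Lo were under 20, and so was Sca-1Neg replicate 3. It was called in Sca-1Hi (at least 5.94-fold lower, adjusted p = 0.0359), lost without any 1 Sca-1Hi array or Sca-1Neg replicate 1 or 2 (adjusted p from 0.0578 to 0.128), and in Sca-1Lo, lost without Sca-1Lo replicate 3 or 4 or Sca-1Neg replicate 1 (adjusted p from 0.0554 to 0.0663). The other probe set of *Cx3cr1* was called in neither.

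*Fcgr3*, a low-affinity receptor of antibody Fc parts, measured 277, 765, 106 and 85.4 in Sca-1Neg, 60.1, 54.0, 10.5 and 12.1 in Sca-1Lo, 17.9, 2.97 and 6.67 in Sca-1Hi, and 50.3, 43.7 and 27.6 in UGE. It was lower in Sca-1Hi (at least 10.5-fold lower, adjusted p = 0.00281) and in UGE (log2 difference -2.41 ± 0.83 SE, adjusted p = 0.0459), the latter lost without any 1 UGE array, Sca-1Hi replicate 3 or Sca-1Neg replicate 1 or 2 (adjusted p from 0.0589 to 0.149). In Sca-1Lo no array overlapped Sca-1Neg, yet the fit gave a log2 difference of -3.05 ± 0.77 SE (adjusted p = 0.0634). *Cd14*, the co-receptor for bacterial lipopolysaccharide, measured 1011, 1822, 192 and 358 in Sca-1Neg, 429.7, 253, 405 and 321 in Sca-1Lo, 668, 411 and 395 in Sca-1Hi, and 72.9, 111 and 103 in UGE. The adult populations overlapped, with Sca-1Hi and Sca-1Lo above Sca-1Neg replicate 3 on every array, and UGE alone was lower (log2 difference -2.66 ± 0.59 SE, adjusted p = 0.00438). *Adgre1* (F4/80) ran from 59.2 to 192 on 13 arrays, *Mrc1*, the mannose receptor, from 33.9 to 274, and *Itgam* (CD11b) from 8.38 to 21.1 on all 14 arrays. None of these 3 was called, nor was *Spi1*, which ran from 26.0 to 62.0 outside Sca-1Neg and measured 111, 199, 34.5 and 59.9 in Sca-1Neg.

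Of the 4 lymphoid members 2 were called lower in UGE, 1 in Sca-1Hi and none in Sca-1Lo, and 0 in each without Sca-1Neg replicates 1 and 2. *Cd3e*, a signalling chain of the T cell receptor complex, measured 77.8, 147, 51.1 and 47.6 in Sca-1Neg, 115, 94.2, 41.3 and 69.0 in Sca-1Lo, 64.3, 38.4 and 65.5 in Sca-1Hi, and 40.5, 31.5 and 26.4 in UGE. Sca-1Lo and Sca-1Neg overlapped throughout, and *Cd3e* was called in no comparison. *Cd3g*, another chain of that complex, measured 76.6, 170.2, 12.4 and 19.8 in Sca-1Neg, 18.5, 8.44, 13.9 and 6.89 in Sca-1Lo, 3.93, 4.05 and 3.86 in Sca-1Hi, and 2.64, 3.55 and 1.84 in UGE. Only Sca-1Neg replicates 1 and 2 were above 20, so the gene could only be lower elsewhere, and it was called in UGE (at least 2.12-fold lower, adjusted p = 0.000891) and Sca-1Hi (at least 2.12-fold lower, adjusted p = 0.00765). *Cd2*, an adhesion molecule of T and natural killer cells, measured 179, 223, 26.7 and 47.2 in Sca-1Neg, 27.3, 8.39, 29.5 and 34.7 in Sca-1Lo, 49.5, 35.4 and 28.1 in Sca-1Hi, and 7.64, 17.6 and 26.4 in UGE, and was called in UGE (at least 3.84-fold lower, adjusted p = 0.0207), lost without UGE replicate 1 or 2 or Sca-1Neg replicate 1 or 2 (adjusted p from 0.0519 to 0.0839). Sca-1Hi (log2 difference -1.20 ± 0.71 SE, adjusted p = 0.291) and Sca-1Lo (log2 difference -1.94 ± 0.66 SE, adjusted p = 0.176) were not called. *Cd79a*, a signalling chain of the B cell receptor, measured 88.3, 120.0, 32.4 and 48.4 in Sca-1Neg, 34.5, 29.6, 39.2 and 49.5 in Sca-1Lo, 33.9, 32.7 and 32.3 in Sca-1Hi, and 37.6, 23.7 and 35.4 in UGE and was called in no comparison.

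Set side by side with every array kept, the myeloid median was below the lymphoid one against Sca-1Neg in every population. In Sca-1Hi the median log2 difference was -3.19 for 24 myeloid and -1.08 for 4 lymphoid members, in Sca-1Lo -2.88 and -1.35, and in UGE -2.07 and -1.82. Pan-leukocyte medians were -4.28, -2.25 and -3.21. Without Sca-1Neg replicates 1 and 2 the myeloid medians came to -1.34 in Sca-1Hi, -1.26 in Sca-1Lo and -0.59 in UGE, and the lymphoid ones to 0.048, -0.078 and -0.61 over *Cd3e*, *Cd2* and *Cd79a*, the 3 that still passed the filter. With *Cd3g* kept in they were -0.11, -0.29 and -0.91, so the sign in Sca-1Hi turned with 1 gene. In UGE the order turned without those replicates, and the lymphoid median lay below the myeloid one with or without *Cd3g*. The lineages were not tested against each other, and *Cd3g*, *Cd2* and *Cd79a* lay at or under a signal of 49.5 on every array outside Sca-1Neg.

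UGE and the 2 Sca-1 positive fractions had few members called against each other in the fit of all 4 populations. That fit takes its spread also from the unequal Sca-1Neg arrays. With only the 2 groups compared more members were called, as given with the processing. Members at an unadjusted p under 0.05 numbered 8 against Sca-1Hi and 7 against Sca-1Lo by limma (all genes 6947 and 6773 of 17136). By the methods' t-test they numbered 20 and 16. In UGE against Sca-1Hi 2 members were lower (all genes 12%), *Cd52* (log2 difference -4.43 ± 0.70 SE, adjusted p = 0.000454) and *Cd14* (log2 difference -2.34 ± 0.63 SE, adjusted p = 0.0140), and 1 was higher (all genes 15.8%), *Coro1a* (at least 2.52-fold higher, adjusted p = 0.0439). The call of *Coro1a* was lost with any of 10 arrays left out (adjusted p from 0.0505 to 0.132), all but Sca-1Hi replicate 3 and Sca-1Neg replicates 1 to 3, and that of *Cd14* without Sca-1Hi replicate 1 (adjusted p = 0.0517). The other tested probe set of *Coro1a* was not called. Every UGE array lay above every Sca-1Hi array for 16 members (28.7%), the 3 C1q chains among them, and below for 8 (23.9%). Calls were a smaller share of the members than of all genes (5.13% lower and 2.56% higher), and arrays without overlap took 41% of the members above and 20.5% below. Without Sca-1Neg replicate 3, 6 members were called higher, and without Sca-1Neg replicate 2, 3 were. The share of all genes called was not computed for these 2 fits, so their counts have no background.

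Against Sca-1Lo, UGE was lower in 3 members (12.2%), *Cd52* (log2 difference -6.51 ± 0.65 SE, adjusted p = 1.08e-05), *Cd14* (log2 difference -1.87 ± 0.59 SE, adjusted p = 0.0336) and *Cd3g*, which was under 20 on all 7 arrays and gets no fold. It was higher in 1 (13.4%), *Cx3cr1* (at least 1.90-fold higher, adjusted p = 0.0487). The other probe set of *Cx3cr1* was not called, and that of *Rac2* was called lower. The call of *Cx3cr1* was lost with any of 11 arrays left out (adjusted p from 0.0523 to 0.131), all but Sca-1Neg replicates 2 to 4, and that of *Cd14* without any 1 UGE array or Sca-1Lo replicate 1, 3 or 4 (adjusted p from 0.0557 to 0.0935). That of *Cd3g* was lost with any of 9 arrays left out (adjusted p from 0.0562 to 0.161), the UGE and Sca-1Hi arrays and Sca-1Lo replicates 1, 2 and 3. All UGE arrays lay above all Sca-1Lo arrays for *C1qa*, *C1qb*, *C1qc*, *Cx3cr1* and *Csf1r*, 5 members (22.2%), and below for 12 (19.2%), of which 7 were pan-leukocyte. With 1 array left out, 1 member was called lower without any 1 UGE array or without Sca-1Lo replicate 1, and 5 without Sca-1Neg replicate 2 or 3. Without Sca-1Neg replicate 3, 2 members were called higher. These counts with 1 array left out have no share of all genes computed beside them. The 5 above took 12.8% of the members, a smaller share than of all genes, and the 12 below took 30.8%. Median log2 differences were 0.29 for myeloid and -0.93 for pan-leukocyte members. Of 24 other macrophage and monocyte genes 4 were lower and 0 higher (all genes 12.2% and 13.4%), with a median of -0.22.

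Sca-1Hi and Sca-1Lo gave 0 calls among 39 members by limma (all genes 0.0175% lower and 0.0817% higher), with 7 at an unadjusted p under 0.05, and 0 by the methods' t-test, with 10. Every Sca-1Hi array lay below every Sca-1Lo array for 7 members (7.15%), of which 6 were pan-leukocyte. They included *Ptprc* (at least 6.34-fold lower, adjusted p = 0.153), *Coro1a* (at least 4.54-fold lower, adjusted p = 0.195), *Cd53* (at least 2.79-fold lower, adjusted p = 0.225), *Itgb2* (log2 difference -2.43 ± 0.69 SE, adjusted p = 0.318) and *Laptm5* (log2 difference -2.04 ± 0.76 SE, adjusted p = 0.429). The pan-leukocyte median was -2.04 and the myeloid one -0.07. Every Sca-1Hi array lay above every Sca-1Lo array for 2 members (4.91%), *Vav1* and *Cx3cr1*, the latter under 20 in both. Without Sca-1Neg replicate 3, 4 members were called lower in Sca-1Hi, and 0 without any other array. The share of all genes called was not computed for these fits.

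The adult samples also carry a second numbering, joined to the arrays by matching values. Low numbers, 1 and 2, are Sca-1Lo and Sca-1Neg replicates 1 and 2 and Sca-1Hi replicate 1, and high numbers, 3 to 5, are the other adult arrays. What the numbers stand for is not stated. Replicates 1 to 4 of Sca-1Lo and of Sca-1Neg carry the same numbers, 1, 2, 4 and 5. Whether same-numbered samples came from the same sort is not stated either. The replicate block of number 2 joined a Sca-1Hi array of high number to Sca-1Lo and Sca-1Neg arrays of low number. In Sca-1Neg the 2 sets are replicates 1 and 2 against 3 and 4, whose unequal signals are described above. Their comparison restates that spread and is no separate result. At high numbers 23 members were lower (all genes 3.24%) and 0 higher (3.31%), with a median log2 difference of -2.58 against 0.39 over all genes. Sca-1Lo differed between the sets in *Cd52* alone (all genes 0.245% lower and 0.934% higher), which fell by 2.29 on the log2 scale at high numbers.

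Sca-1Lo against Sca-1Neg was also computed within each set. Sca-1Neg replicates 1 and 2 stand at low and 3 and 4 at high numbers, so their unequal signals enter these differences. At low numbers 14 members were lower (all genes 0.455%, and 0.642% higher), *Aif1*, *C1qa*, *C1qb*, *C1qc*, *Ccl3*, *Ccl4*, *Cd2*, *Cd68*, *Cx3cr1*, *Fcer1g*, *Fcgr3*, *Hcls1*, *Il1b* and *Lyz2*. At high numbers 3 were lower (0.823%, and 2.08% higher), *Ccl3*, *Cd52* and *Fcgr3*. The median log2 difference was -3.33 at low and -1.35 at high numbers, and the drop was smaller at high numbers for 36 of 39 members. *Ccl3* gave -8.32 and -3.50, *C1qa* -6.15 and -3.24, and *Fcgr3* -3.01 and -3.08. *Cd52* ran the other way, at -0.10 and -2.21. The difference between the sets itself was called in 0 of 39 members by limma (all genes 0.0117%), with 20 at an unadjusted p under 0.05. Fits without 1 Sca-1Lo or Sca-1Neg array let 1 array stand for a set and assume that it varies like the others, so their counts are not given.

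**Figure D4:**
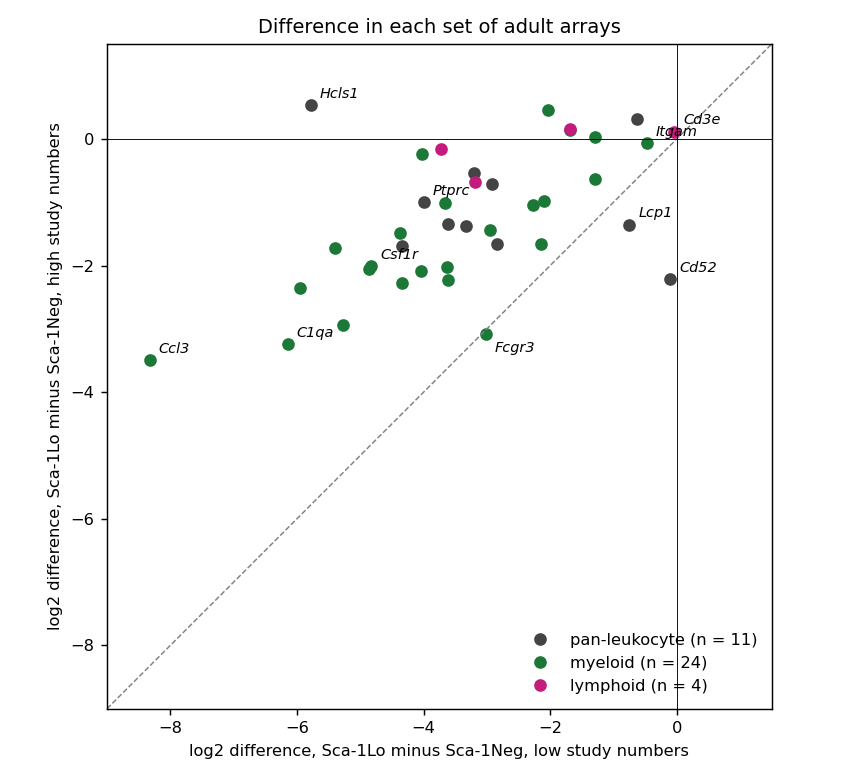
Log2 difference between Sca-1Lo and Sca-1Neg for 39 members, at low study numbers on the horizontal and at high study numbers on the vertical axis, 2 arrays a population in each; the dashed line marks equal differences. Members above the line, 36 of 39, had the smaller drop at high numbers, and *Cd52*, *Lcp1* and *Fcgr3* lie on or below it.

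Other leukocyte genes, from lists written with earlier results of these data known, were called in smaller shares in Sca-1Hi. Beside each list here and below, 12.9% of all genes were called lower in UGE, 5.19% in Sca-1Hi and 0.829% in Sca-1Lo. Called higher were 16.3%, 6.11% and 1.68%. Calls of the lists without Sca-1Neg replicates 1 and 2 were not computed. Of 21 other pan-leukocyte genes 14 were lower in UGE, 6 in Sca-1Hi and 1 in Sca-1Lo, and 1 was higher in Sca-1Hi, with median log2 differences of -1.89, -1.38 and -1.49. Of 24 other macrophage and monocyte genes 9, 7 and 1 were lower and 1, 1 and 0 higher, with medians of -1.42, -0.55 and -0.83. In Sca-1Hi these included the pore-forming *Mpeg1* (at least 15.9-fold lower, adjusted p = 0.0162). *Clec7a*, the beta-glucan receptor, measured 586, 1058, 31.0 and 120.4 in Sca-1Neg, and *Ms4a7*, a macrophage membrane protein, 1394, 4983, 48.5 and 42.3 in Sca-1Neg. Replicates 1 and 2 of Sca-1Neg both lay above 3 and 4 in 16 of the 24, against 36 of 39 members, and *Trem2*, a lipid receptor of macrophages, was among the others at 56.2, 36.6, 43.7 and 36.1 in Sca-1Neg.

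Of the T and natural killer cell genes 18 of 22 had Sca-1Neg replicates 1 and 2 above 3 and 4, and *Cd6*, a T cell surface receptor, did not, at 236, 234, 425 and 143 in Sca-1Neg. Of 22 T and natural killer cell genes 11 were lower in UGE, 3 in Sca-1Hi and 0 in Sca-1Lo, where 5 passed an unadjusted p under 0.05 by limma. *Nkg7*, a granule protein of killer cells, measured 3467, 6864, 27.9 and 68.2 in Sca-1Neg, and the protease *Gzma* 1763, 3348, 63.6 and 144 in Sca-1Neg, with the other 10 arrays between 26.8 and 52.4 and between 3.88 and 103. Of 13 B cell and plasma cell genes 6, 5 and 2 were lower. *Cd79b*, the partner of *Cd79a*, measured 89.8, 191, 23.2 and 113 in Sca-1Neg, with no array elsewhere above 20, so that it could only be lower there, and was called in Sca-1Hi (at least 4.10-fold lower, adjusted p = 0.000849) and Sca-1Lo (at least 4.10-fold lower, adjusted p = 0.0197). *Jchain*, which joins secreted antibodies, measured 149.8, 107, 125 and 23.4 in Sca-1Neg, and 582, 206, 159 and 579.7 in Sca-1Lo, with every Sca-1Lo array above every Sca-1Neg array and no call. Of 8 neutrophil genes 4, 2 and 1 were lower, of 8 dendritic cell genes 3, 1 and 0 (with 2 in Sca-1Lo at an unadjusted p under 0.05 by limma), and of 6 mast cell genes 2, 1 and 0 (with 3). Another 2 mast cell genes were higher in UGE and 1 in Sca-1Hi. With so few genes, 1 call in a list cannot be set apart from the shares of all genes.

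Basal epithelial genes ran against the leukocyte members, and endothelial genes did so in the adult fractions. In Sca-1Hi 6 of 6 basal epithelial and 6 of 7 endothelial genes were higher than in Sca-1Neg, and 3 of 6 smooth muscle genes lower. In UGE 4 of 6 basal genes were higher, and 5 of 7 endothelial and 6 of 6 smooth muscle genes lower. In Sca-1Lo 3 of 6 basal and 5 of 7 endothelial genes were higher. The 7 endothelial genes summed to between 182 and 762 in UGE, 8806 and 17148 in Sca-1Hi, 5122 and 12242 in Sca-1Lo, and 1212 and 5356 in Sca-1Neg. The part of these cells in the leukocyte differences was not tested.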

How the data were processed

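Each of 14 samples was hybridized to its own Affymetrix mouse array. The deposited intensity values are linear and were made by the authors with PLIER in ArrayAssist, a model over several arrays that turns the probes of a set into 1 normalized signal. MAS5 gave detection calls, which were not used here, so the filter rests on the signal alone. Settings of the normalization are not given in the sources used here. The table holds 45101 probe sets, and 0 columns belong to other samples. Signals were taken to log2 with nothing added, and the 41031 probe sets above 20 on at least 1 array were kept, without 64 array controls. The platform annotation names 1 gene for 34945 probe sets and several for 932 and none for 9160, and the latter 2 kinds were tested but not named. The probe set of highest mean log2 signal stood for a gene. A gene's other probe sets gave another call in 18 of 66 pairs of gene and comparison (11 genes have several probe sets), and the opposite call in 0. The genes with another call were *Cd53*, *Coro1a*, *Csf1r*, *Cx3cr1*, *Cybb*, *Laptm5*, *Ptprc*, *Rac2* and *Vav1*.

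All 4 group means were fitted at once with limma 3.58.1 in R 4.3.3 (lmFit, eBayes), with Benjamini-Hochberg adjustment over all probe sets, and a call needed an adjusted p under 0.05 and a ratio of more than 7 to 4. Where a population's mean, or every array of it, was at or under 20, a fold is a lower bound with that population's signals set to at least 20. The fit was tested on simulated data. Tables and figures were made with Python 3.11.15, pandas 2.3.3, numpy 2.4.6 and matplotlib 3.10.9.

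The members and all lists were chosen with earlier results of these data known. All members may be named, with signals on every array for the lymphoid ones and for up to 4 called members of each role by largest difference from Sca-1Neg, and up to 3 called genes of largest difference of each other list and comparison. Other genes of the lists, and further array values, were chosen after their values were seen. The check of the sort by *Ly6a* was not made. Study numbers were joined to arrays by matching values of 1050 probe sets to within 1.2e-05. No 2 arrays were identical (highest correlation 0.973). Median signals ran from 80.7 to 99.5, and 3 or 4 arrays a population limit the precision. Every comparison was repeated without the filter, with a stricter one, with 16 added, with quantile or 75th percentile scaling, the methods' t-test, only the groups compared, blocks, array weights, an intensity trend, the mean of probe sets, and arrays left out. Pairing by replicate number was checked from the data for each 2 groups: all 4 pairs of Sca-1Lo and Sca-1Neg correlated above 0.1, and no other 2 groups had every pair above it. Some differently numbered pairs of Sca-1Lo and Sca-1Neg also lay above 0.1, so the check does not show pairing.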

Additional observations from a re-analysis of the deposited data

Results flagged for a closer look

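Of 78 sets of 4 arrays (39 members in Sca-1Lo and in Sca-1Neg), 1 held an array far from the other 3 by Dixon's gap over range with the critical value 0.829. *Adgre1*, the macrophage antigen F4/80, measured 948 on Sca-1Neg replicate 2 against 192, 71.2 and 95.7 on replicates 1, 3 and 4. Chance alone gives about 1 such set in 20.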

How the results depend on the processing

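Of 1700 repeats of single member calls 1401 kept the call, 299 lost it and 0 reversed. *Cd52* and *Ccl3* kept theirs in UGE against Sca-1Neg in all repeats. Among all 39 members, the 21 lower in UGE against Sca-1Neg became 2 by the methods' t-test, 38 with low study numbers only, 8 with high ones, 38 with array weights (whose fit stopped before convergence), 9 without Sca-1Neg replicates 1 and 2, and 13 to 37 with 1 array left out. The 24 in Sca-1Hi became 0 (18 at an unadjusted p under 0.05) by t-test, 15 with only the 2 groups, 13 with high numbers, 15 without Sca-1Neg replicates 1 and 2, and 14 to 31 with 1 array left out. The 6 in Sca-1Lo became 0 (18 unadjusted) by t-test, 1 with only the 2 groups, 11 with the replicate block (5 with it in the 2 groups only), 18 with low and high numbers as a block, 30 with low and 3 with high numbers only, 34 with weights, 3 without Sca-1Neg replicates 1 and 2, and 2 to 28 with 1 array left out. In UGE against Sca-1Hi the 2 lower became 4 with only the 2 groups and 6 with weights, and 1 to 3 with 1 array left out, and the 1 higher became 0 with 16 added, centred on the 75th percentile or as the mean of probe sets, 3 by t-test or with the replicate block, 11 with only the 2 groups, 12 with weights, and 0 to 6 with 1 array left out. In UGE against Sca-1Lo the 3 lower became 1 with quantile normalization, 7 by t-test or with only the 2 groups, 10 with low numbers, 11 with weights, 5 as the mean of probe sets, and 1 to 5 with 1 array left out, and the 1 higher became 0 without a filter, with 16 added, centred on the 75th percentile, with the replicate block or as the mean of probe sets, 2 by t-test, 5 with only the 2 groups, 2 with low and 4 with high numbers, 5 with weights, and 0 to 2 with 1 array left out. Sca-1Hi against Sca-1Lo gave 4 lower with weights and 0 to 4 with 1 array left out. The difference between study number sets was called in 1 member with 16 added, and in 0 to 27 with 1 array left out. The cause of these changes was not tested, other than fewer arrays where arrays were dropped. Shares of all genes called were not computed for these settings, apart from the replicate block in Sca-1Lo, so the other counts have no background.

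Medians moved beyond their spread in a few settings. Without Sca-1Neg replicates 1 and 2 the myeloid median was -0.59 in UGE, -1.34 in Sca-1Hi and -1.26 in Sca-1Lo, the lymphoid one -0.61, 0.048 and -0.078 over 3 genes (-0.91, -0.11 and -0.29 with *Cd3g*, which failed the filter), and the pan-leukocyte one -0.96 in Sca-1Lo. UGE against Sca-1Hi gave a myeloid median of 0.84 with quantile normalization and a lymphoid one of -0.32 with 16 added, and UGE against Sca-1Lo a lymphoid one of -0.53 with the stricter filter and -0.43 with 16 added. With 1 array left out the pan-leukocyte median of UGE against Sca-1Lo ran from -1.22 to -0.63. Centring on the 75th percentile moved the median of all probe sets in UGE against Sca-1Hi from -0.09 to -0.23 and against Sca-1Lo from -0.04 to -0.22. Every same-numbered pair of Sca-1Lo and Sca-1Neg correlated above 0.1, as in no other 2 groups, but some differently numbered pairs did too. Of 19 same-numbered pairs in all 11 correlated above 0.1 (from -0.45 to 0.56), and 4 of 14 arrays correlated best with their own number. With the replicate block 28 members were lower than Sca-1Neg in UGE and 28 in Sca-1Hi. That block joins embryo to adult samples, and a Sca-1Hi array of high study number to a Sca-1Neg array of low one. The share of all genes called was not computed for either count. Signals near 20 set a limit for *Itgam*, *Cd48*, *Cd3g*, *Ncf4* and *Cx3cr1*, whose differences are bounds or not measurable.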
